A study of Rattus norvegicus with 6 samples.

Results

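The integrin and laminin chains of rat atrial fibroblasts comprised the rows of the gene table whose symbols name an integrin alpha chain, an integrin beta chain or a laminin alpha, beta or gamma chain, and 36 of 40154 genes met this rule. They were 25 integrin chains (17 alpha and 8 beta) and 11 laminin chains. The rule uses symbols and no measured value, but it was chosen with earlier results of these data known. Atrial fibroblasts from 1- to 3-day-old Sprague-Dawley rats were transfected with a control siRNA (si-NC) or with an siRNA against Gpd1l (si-GPD1L), the gene of glycerol-3-phosphate dehydrogenase 1-like, and were collected 24 h later. Polyadenylated RNA was sequenced in 3 libraries per group, and no other genotype, strain or treatment differed between the groups in the labels. The fibroblasts were separated from myocytes by preplating, a step in which non-myocytes attach to the dish first. The labels do not say whether the libraries came from separate cultures, so p-values measure the spread between these libraries, which may be technical. The digit that numbers the si-GPD1L libraries was taken as a replicate, and if it instead numbers different siRNAs, the SD and the p-values of that group cover the spread between siRNAs as well.

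Integrins are membrane receptors made of 1 alpha and 1 beta chain, and the pair decides which matrix protein the cell holds on to. Laminins are secreted cross-shaped trimers of an alpha, a beta and a gamma chain that form the sheet of the basement membrane together with collagen IV, nidogen and perlecan. In cardiac fibroblasts integrins connect the interstitial collagen and fibronectin to the actin cytoskeleton, and they are known for their part in matrix sensing and in the release of latent TGF-beta. The chains are grouped below by what they bind: collagen, laminin, ligands with an RGD motif (an Arg-Gly-Asp tripeptide, as in fibronectin and vitronectin), the ligands of alpha4 and alpha9, or the ligands of leukocytes.

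3 chains rose in si-GPD1L at an adjusted p under 0.05 (edgeR quasi-likelihood test with Benjamini-Hochberg adjustment over all genes tested): Itga1, Itga5 and Lamc1. The 250 bases before the annotated start of each are given here, because these are the chains that passed this threshold. The bases come from the RefSeq promoter table of build GRCr8, run 5′ to 3′ on the strand of the gene, and have every GC box (GGGCGG or, on the other strand, CCGCCC) in capitals. The window is chr2:48545284-48545533 for Itga1, chr7:136381306-136381555 for Itga5 and chr13:68051987-68052236 for Lamc1, each on the minus strand.
Itga1: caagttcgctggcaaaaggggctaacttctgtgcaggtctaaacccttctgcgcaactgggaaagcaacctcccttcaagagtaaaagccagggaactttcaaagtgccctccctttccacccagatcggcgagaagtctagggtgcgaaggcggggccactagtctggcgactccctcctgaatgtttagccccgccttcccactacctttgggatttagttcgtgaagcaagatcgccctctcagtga
Itga5: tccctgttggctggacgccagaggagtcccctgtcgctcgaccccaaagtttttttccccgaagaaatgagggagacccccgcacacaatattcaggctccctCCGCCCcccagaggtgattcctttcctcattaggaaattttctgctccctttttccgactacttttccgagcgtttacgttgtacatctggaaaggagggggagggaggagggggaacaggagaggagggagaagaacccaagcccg
Lamc1: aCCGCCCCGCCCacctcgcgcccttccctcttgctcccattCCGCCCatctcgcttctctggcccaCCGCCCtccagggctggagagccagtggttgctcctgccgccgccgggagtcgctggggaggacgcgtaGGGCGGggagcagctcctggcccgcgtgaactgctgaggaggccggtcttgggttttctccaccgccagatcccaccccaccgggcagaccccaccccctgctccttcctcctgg

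The Lamc1 window held 5 GC boxes, the Itga5 window 1 and the Itga1 window 0, so the 3 chains that rose did not share this motif. Over all members, 28 of 36 had an entry in the promoter table, matched by gene ID. A GC box stood in 14 of these 28 windows (50%), against 32.4% of the 27457 windows of the table. The letters of a gamma-activated site (TTCNNNGAA, read the same on both strands) occurred in the windows of Itga5, Itga11, Itgam and Itgb6 (14.3% of the 28), against 7.52% of the table. The motifs were chosen after results of these data were known, and a match of letters is a description and not a binding site.

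The libraries held 16892255 to 20149732 gene counts, of which the 36 chains took 0.968% to 1.11%. The targeted gene, Gpd1l, had raw counts of 265, 314 and 321 in si-NC and of 202, 229 and 303 in si-GPD1L. si-GPD1L replicate 3 lay inside the range of the si-NC libraries. The log2 fold change of Gpd1l was -0.31 (SE 0.15, adjusted p = 0.234 in the edgeR test), and an exact two-sided permutation test gave p = 0.20, where 0.10 is the smallest value that 3 against 3 libraries allow. si-NC replicate 1 stood apart from its group: the chi-square per degree of freedom between replicates was 19.7 and 27.4 for its pairs, 8.35 for the other si-NC pair and 3.89 to 5.81 within si-GPD1L. This library was the lowest of the 3 si-NC libraries for 24 of the 33 chains tested, and for 39.4% of all genes tested. The chains that were called, and the partners whose call it ends, are also given with this library or the third si-GPD1L library left out. The fibroblast markers Col1a1, Col1a2, Col3a1, Dcn, Lum, Pdgfra, Tcf21, Thy1, Ddr2 and Mfap5 summed to 26959 to 37269 TPM, against 2470 to 2823 TPM for 11 cardiomyocyte markers, 246 to 351 TPM for 16 macrophage and leukocyte markers and 42.5 to 74.5 TPM for 12 endothelial markers. Since these are bulk libraries, fewer cells of a type and less RNA per cell cannot be told apart.

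Levels are given in deposited TPM, a level per length that can be compared between genes, and ran from under 1 TPM to 2136 TPM in a library. Itgb1, the common beta chain that pairs with most matrix-binding alpha chains, had the highest level in every library. Its TPM was 2123, 2078 and 2014 in si-NC and 2047, 2080 and 2136 in si-GPD1L, and the groups overlapped. All 17 alpha chains together summed to 794 ± 111 TPM (SD, n = 3) in si-NC and 916 ± 16.8 TPM (SD, n = 3) in si-GPD1L, below Itgb1 alone. The ratio of these 2 sums was 1.15 on TPM and 1.09 on counts per kb scaled to a common library size. The 12 alpha chains that can pair with Itgb1 summed to 783 ± 110 TPM and 904 ± 14.6 TPM. Among the laminin chains, Lamc1 had 554 ± 103 TPM in si-NC and 757 ± 5.58 TPM in si-GPD1L, and Lamb1 had 382 ± 51.0 TPM and 460 ± 4.43 TPM. Lama4, the most abundant alpha chain of laminin here, had 193 ± 31.5 TPM and 236 ± 9.67 TPM.

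**Figure D1:**
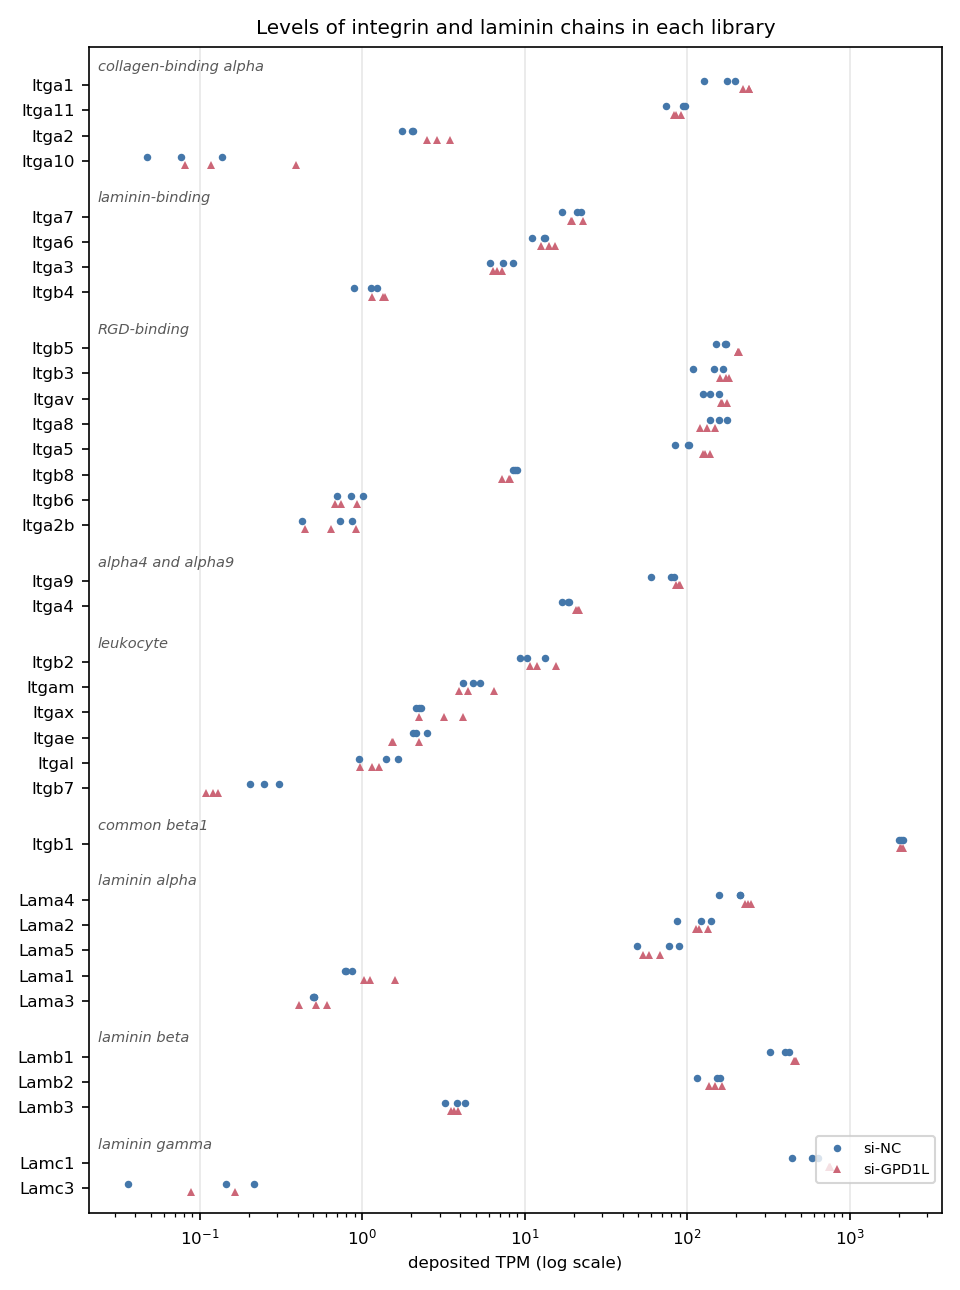
Deposited TPM of the chains on a log axis, grouped by class, with 1 point per library (circles si-NC, triangles si-GPD1L). Itgb1 lies at 2014 to 2136 TPM, while Itga10, Itgb7 and Lamc3 lie under 0.4 TPM; 1 si-GPD1L library with 0 counts of Lamc3 is not drawn.

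Of the 36 chains, 33 had enough counts to be tested. Itga10, a collagen receptor chain of cartilage, had 2 to 16 counts per library, Itgb7, a partner of alpha4 and alphaE on lymphocytes, had 3 to 8, and Lamc3 had 0 to 11, so these 3 are given by their counts alone. Lamb4 had no row under that symbol among the genes counted, so it was not analysed. Among the 33 chains, 3 were higher and 0 were lower at an adjusted p under 0.05. Across all 14852 genes tested the edgeR test called 6.36%, with 4.03% higher and 2.33% lower, so the count of 3 in 33 chains lay near this background. With DESeq2's Wald test 4 chains were higher and 1 was lower, where 7.91% of all genes were called, and with edgeR's exact test without a filter 4 were higher and 1 was lower, where 5.28% were. At an unadjusted p under 0.05 there were 10 chains higher and 3 lower, 13 of 33 in all, against 22.4% of all genes tested. The stricter pair of thresholds that also asks for more than 1 log2 unit of change was met by 0 chains and by 1.62% of all genes.

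The log2 fold changes of the 33 chains ran from -0.43 (Itgae) to 0.53 (Lama1), with a median of 0.087, against a median of -0.0049 over all genes tested. 17 of the 33 were above 0, where 49.1% of all genes were. In 10 chains every si-GPD1L library was above every si-NC library, and in 2 chains every one was below, where 15.1% and 13.9% of all genes did so (29.0% in either direction). Leaving out si-NC replicate 1 gave a median of 0.045, and leaving out si-GPD1L replicate 3 gave -0.047. The 95% interval of the fold change stayed between 0.536 and 1.95 for each of the 33 chains.

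**Figure D2:**
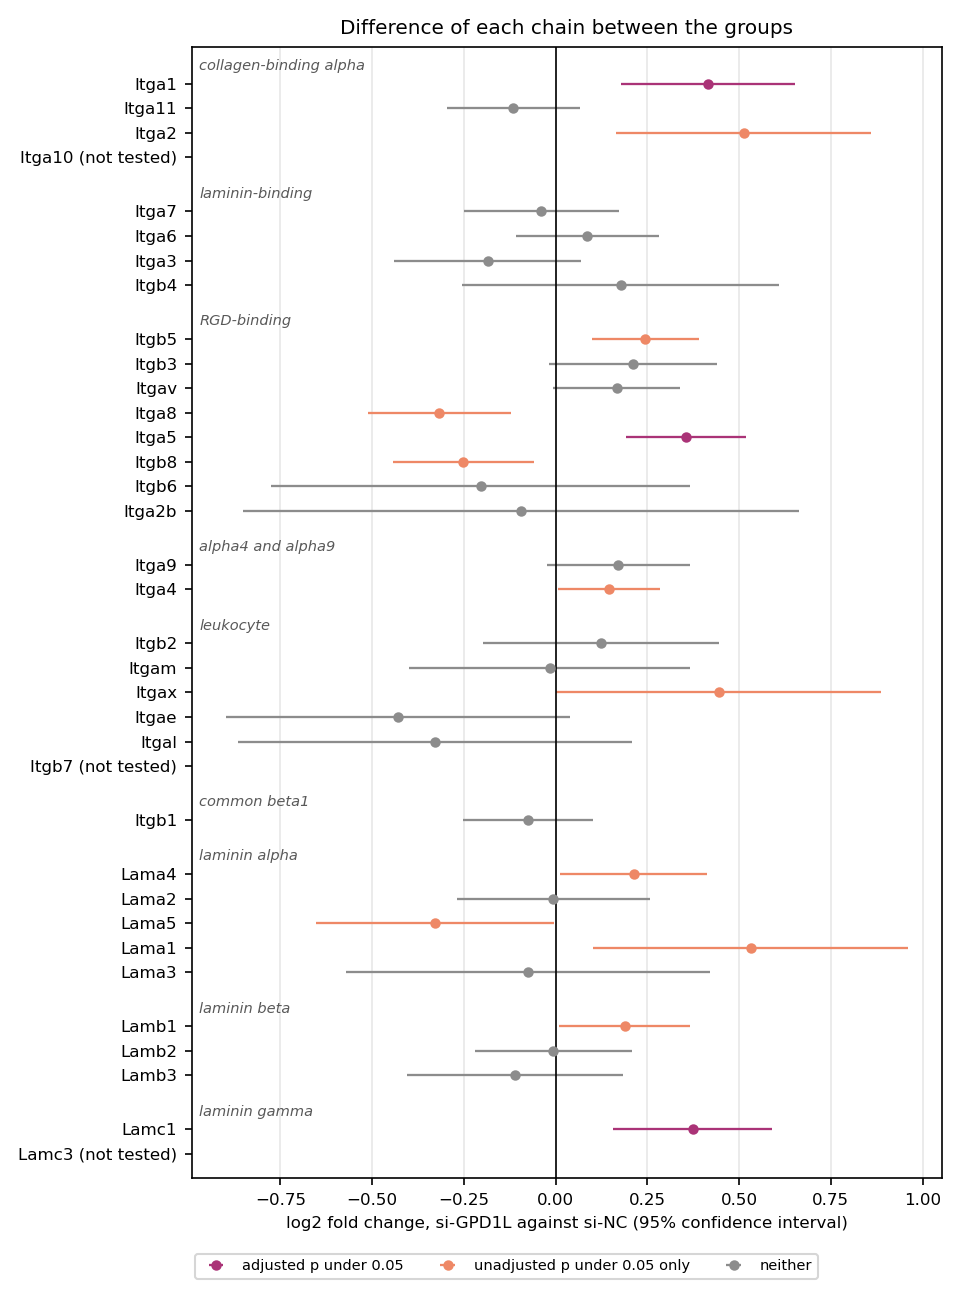
Log2 fold change (x axis) of each chain in si-GPD1L against si-NC, with 95% confidence intervals from the edgeR fit, grouped by class. Itga1, Itga5 and Lamc1 (adjusted p under 0.05) lie to the right of 0, and 3 chains were not tested.

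The collagen receptors were led by Itga1, which with Itgb1 forms alpha1 beta1, a receptor for collagen IV and other collagens, and by Itga11, a receptor chain of fibroblasts for fibrillar collagen. Normalized counts (counts scaled to a common library size) of Itga1 were 4122, 5339 and 5844 in si-NC and 6501, 6942 and 6955 in si-GPD1L. All 3 si-GPD1L libraries were above all 3 si-NC libraries, with si-NC replicate 1 the lowest of the 6. Itga1 rose by a log2 fold change of 0.41 (SE 0.11, adjusted p = 0.0434 in the edgeR test), a fold of 1.33 with a 95% interval of 1.13 to 1.57. Its log2 fold change was 0.28 (adjusted p = 0.0031) when si-NC replicate 1 was left out, and leaving out si-GPD1L replicate 3 gave 0.40 (adjusted p = 0.139).

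Itga11 had 3431, 4048 and 4120 normalized counts in si-NC and 3535, 3408 and 3767 in si-GPD1L, so the groups overlapped. Its log2 fold change was -0.12 (adjusted p = 0.446), and -0.20 (adjusted p = 0.0309) without si-NC replicate 1. Itga2, a collagen receptor chain known from platelets and epithelia, was a minor chain of 1.95 ± 0.169 TPM in si-NC and 2.96 ± 0.498 TPM in si-GPD1L (SD, n = 3). Its libraries did not overlap (log2 fold change 0.51, adjusted p = 0.0786 in the edgeR test). Itga1 and Itga2 are neighbours on chromosome 2 of build rn6, at chr2:47127403-47281387 and chr2:46996904-47097011 with 30.4 kb between them, both on the minus strand. The gene Pelo lies inside the span of Itga1 on the same strand, with a mean of 1058 counts per library against 5955 for Itga1.

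Within the collagen-binding class the make-up of the summed TPM moved toward Itga1. Its share was 62.3% to 66.2% in the si-NC libraries and 71.4% to 73.5% in those of si-GPD1L, while that of Itga11 was 33.0% to 36.7% and 25.5% to 27.5%. Neither pair of ranges overlapped. Because these chains make up nearly all of the class, the rise of the Itga1 share and the fall of the Itga11 share are not separate differences. The class summed to 257 ± 48.4 TPM in si-NC and 323 ± 11.6 TPM in si-GPD1L (SD, n = 3). Shares and sums are given as a description with no test, and the chains named for their shares were chosen after the values were seen. On the TPM scale the median gene had a log2 ratio that was higher by 0.083 than on normalized counts, and on normalized counts per kb the ratio of the class sums was 1.19 in place of 1.26.

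**Figure D3:**
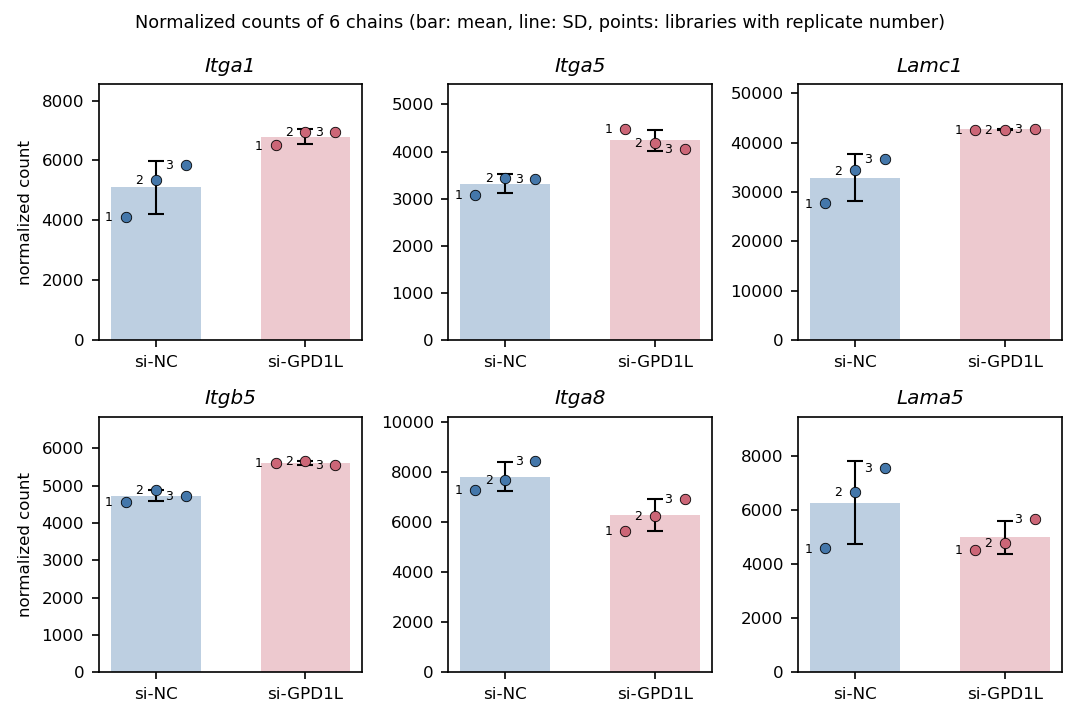
Normalized counts (y axis, from 0) of 6 chains in each library, with bars at the group mean, lines at the SD and points numbered by replicate. All si-GPD1L points lie above all si-NC points for Itga1, Itga5, Lamc1 and Itgb5 and below them for Itga8, while the groups overlap for Lama5.

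The RGD-binding receptors formed the most abundant class after Itgb1, at 709 ± 83.5 TPM in si-NC and 818 ± 13.1 TPM in si-GPD1L (SD, n = 3). This sum takes in alpha and beta chains, unlike that of the collagen-binding class, which holds alpha chains only, so the ranking depends on the grouping. Between the groups the sums had a ratio of 1.15 on TPM and 1.09 on normalized counts per kb. Itgb5, Itgb3, Itgav, Itga8 and Itga5 each had between 84.7 and 209 TPM in every library, and Itgb8, Itgb6 and Itga2b had under 10 TPM. Of these 8 chains 1 rose, 0 fell and 7 did not pass the test.

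Itga5, the alpha chain of the fibronectin receptor alpha5 beta1, had 3080, 3435 and 3423 normalized counts in si-NC and 4483, 4180 and 4053 in si-GPD1L. The groups did not overlap, and si-GPD1L replicate 1 was the highest. Itga5 rose by a log2 fold change of 0.36 (SE 0.075, adjusted p = 0.0146 in the edgeR test), a fold of 1.28 with a 95% interval of 1.14 to 1.43. Leaving out si-NC replicate 1 gave 0.30 (adjusted p = 0.0013), and the value was 0.38 (adjusted p = 0.0398) with si-GPD1L replicate 3 left out. Fn1, which encodes its ligand fibronectin and is named here after its values were seen, had a log2 fold change of 0.31 (adjusted p = 0.135).

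Itga8, which with Itgb1 forms a receptor for nephronectin and other RGD ligands, pointed the other way. Its normalized counts were 7302, 7693 and 8441 in si-NC and 5649, 6235 and 6929 in si-GPD1L. Every si-GPD1L library was below every si-NC library, but the log2 fold change of -0.32 (SE 0.089) missed the threshold (adjusted p = 0.0557 in the edgeR test). The fit that left out si-NC replicate 1 gave -0.36 (adjusted p = 0.0017), and that leaving out si-GPD1L replicate 3 gave -0.40 (adjusted p = 0.0536). In the make-up of the class, Itga8 took 21.6% to 22.5% of the TPM in the si-NC libraries and 14.8% to 17.8% in those of si-GPD1L, and Itga5 took 13.2% to 14.0% and 15.0% to 17.0%.

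Itgb5, a partner of alphaV in the vitronectin receptor, had 4574, 4880 and 4733 normalized counts in si-NC and 5597, 5657 and 5552 in si-GPD1L. These libraries were separate, with a log2 fold change of 0.24 (SE 0.067, adjusted p = 0.0514 in the edgeR test). Itgb3, another partner of alphaV, and Itgav itself, the alphaV chain, had log2 fold changes of 0.21 (adjusted p = 0.261) and 0.17 (adjusted p = 0.242), with overlapping groups. Itgb8, which with alphaV is known to activate latent TGF-beta, had 569 ± 35.6 normalized counts in si-NC and 478 ± 27.7 in si-GPD1L (SD, n = 3). It was lower in each si-GPD1L library, with a log2 fold change of -0.25 (adjusted p = 0.117 in the edgeR test). The long transcript of Itgb8 was at -0.27 (SE 0.0897, adjusted p = 0.0972) and the short one at 0.086 (SE 0.155, adjusted p = 0.788), in a table in which isoforms share reads, and the difference between them was not tested. Itgb6, an epithelial partner of alphaV, had 0.684 to 1.01 TPM, and Itga2b, the platelet fibrinogen receptor chain, had 0.427 to 0.910 TPM, and the groups overlapped for both.

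**Figure D4:**
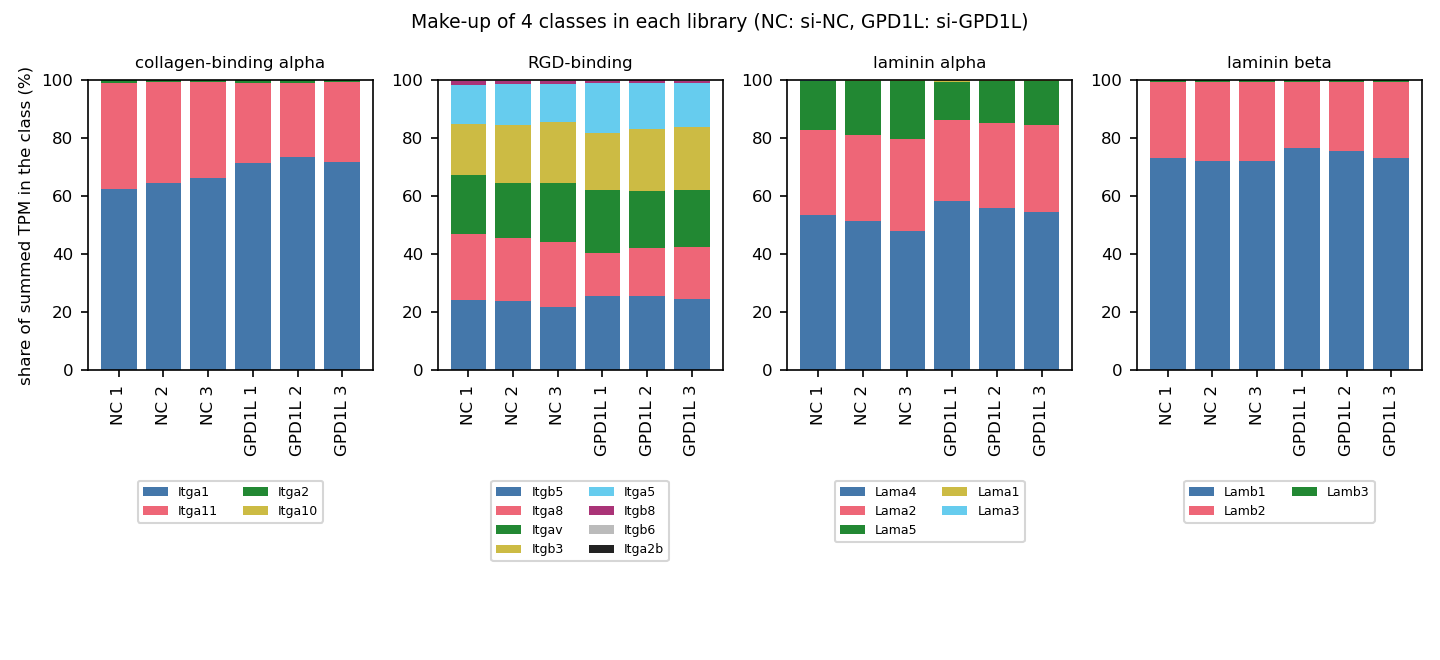
Share (y axis, percent) of each chain in the summed TPM of its class for 4 classes, with 1 stacked bar per library. Itga1 takes 62.3% to 66.2% of the collagen-binding class in the si-NC libraries and 71.4% to 73.5% in those of si-GPD1L, and Lama4 takes 47.9% to 53.3% and 54.6% to 58.3% of the laminin alpha class.

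The laminin-binding receptor chains were low beside the laminins and did not pass the test in any of the 4 cases. They summed to 40.9 ± 5.32 TPM in si-NC and 42.7 ± 3.13 TPM in si-GPD1L (SD, n = 3). The ratio of these sums was 1.04 on TPM and 0.988 on normalized counts per kb, so its direction depended on the scale. Itga7, the laminin receptor chain of muscle, had 16.9, 21.0 and 22.2 TPM in si-NC and 19.5, 19.2 and 22.9 TPM in si-GPD1L. The groups overlapped, and the log2 fold change on normalized counts was -0.040 (adjusted p = 0.853, with a 95% interval of the fold from 0.840 to 1.13). Itga6, an alpha chain of laminin receptors in many tissues, was at 0.087 (adjusted p = 0.621), and Itga3, a receptor chain for laminins with the alpha3 or alpha5 chain, was at -0.18 (adjusted p = 0.380). Itgb4, the hemidesmosome partner of alpha6 in epithelia, had 0.896 to 1.39 TPM and a log2 fold change of 0.18 (adjusted p = 0.652).

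Itga9 and Itga4, the alpha chains whose ligands include tenascin, osteopontin and splice forms of fibronectin, summed to 92.4 ± 13.5 TPM in si-NC and 109 ± 2.46 TPM in si-GPD1L (SD, n = 3). These sums had a ratio of 1.18 on TPM and 1.12 on normalized counts per kb. In si-NC they were 77.0, 97.9 and 102 TPM, with replicate 1 the lowest. Itga9 had 60.0, 79.5 and 83.3 TPM in si-NC and 88.7, 90.3 and 85.8 TPM in si-GPD1L. Its si-GPD1L libraries were all above its si-NC libraries, with a log2 fold change on normalized counts of 0.17 (adjusted p = 0.282). Itga9 lies within the span of Ctdspl on the same strand, which had a mean of 926 counts per library against 4328 for Itga9. Itga4 had 1542, 1549 and 1564 normalized counts in si-NC and 1689, 1743 and 1714 in si-GPD1L. The groups did not overlap, but the log2 fold change of 0.14 (SE 0.064) had an adjusted p of 0.205 in the edgeR test.

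Itgb1, the shared partner of these alpha chains, had 61246 ± 4544 normalized counts in si-NC and 58122 ± 1096 in si-GPD1L (SD, n = 3). Its log2 fold change was -0.076 (SE 0.081, adjusted p = 0.635 in the edgeR test), a fold of 0.949 with a 95% interval of 0.840 to 1.07.

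The leukocyte integrins were detected at low levels, summing to 21.8 ± 2.65 TPM in si-NC and 23.9 ± 4.62 TPM in si-GPD1L (SD, n = 3), and none of the 5 tested passed. Their sums had a ratio of 1.09 on TPM and 1.03 on normalized counts per kb. Itgb2, the beta chain of most of them, had 9.31, 10.4 and 13.4 TPM in si-NC and 10.7, 11.8 and 15.5 TPM in si-GPD1L. The groups overlapped, with a log2 fold change on normalized counts of 0.12 (adjusted p = 0.675). Itgam, the alpha chain of Mac-1 on macrophages and neutrophils, was at -0.016 (adjusted p = 0.972). Itgax, the alpha chain of dendritic cells and some macrophages, had 101, 86.9 and 89.9 normalized counts in si-NC and 88.4, 125 and 164 in si-GPD1L. It had overlapping groups and a log2 fold change of 0.44 (adjusted p = 0.223), which was 0.21 (adjusted p = 0.616) without si-GPD1L replicate 3. Itgae, the chain of intraepithelial lymphocytes, and Itgal, the alpha chain of LFA-1, were at -0.43 (adjusted p = 0.265) and -0.33 (adjusted p = 0.465). The 16 macrophage and leukocyte markers, all detected, summed to 270 to 306 TPM in si-NC and 246 to 351 TPM in si-GPD1L. They were highest in si-GPD1L replicate 3, as Itgb2, Itgam and Itgax were, and their part in these levels was not tested. Itgam and Itgax lie 9.8 kb apart on chromosome 1 and Itgal 713.6 kb before Itgam.

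Lamc1, the gamma chain of most laminins, had 27718, 34399 and 36761 normalized counts in si-NC and 42625, 42658 and 42831 in si-GPD1L. The si-GPD1L libraries lay close together above all si-NC libraries, of which replicate 1 was the lowest. Lamc1 rose by a log2 fold change of 0.37 (SE 0.100, adjusted p = 0.0458 in the edgeR test), a fold of 1.30 with a 95% interval of 1.12 to 1.51. Leaving out si-NC replicate 1 brought it to 0.26 (adjusted p = 0.00077), and with si-GPD1L replicate 3 left out it stood at 0.37 (adjusted p = 0.136). Lamc1 lies at chr13:70656727-70783515 of rn6, on the minus strand.

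Lamb1, the main beta chain here, had 16981, 19394 and 20147 normalized counts in si-NC and 21392, 21557 and 21430.4 in si-GPD1L. The groups did not overlap, and the log2 fold change was 0.19 (SE 0.082, adjusted p = 0.198 in the edgeR test). Lamb2, the beta chain of muscle and vascular laminins, had overlapping groups and a log2 fold change of -0.0063 (adjusted p = 0.982). Its TPM was 142 ± 23.6 in si-NC and 150 ± 14.2 in si-GPD1L (SD, n = 3). Lamb3, the beta chain of laminin-332, had 3.21 to 4.29 TPM and a log2 fold change of -0.11 (adjusted p = 0.680). Of the 3 beta chains, 0 passed the test, and their summed TPM was 528 ± 75.1 in si-NC and 613 ± 16.6 in si-GPD1L.

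None of the 5 laminin alpha chains passed, and their values lay on both sides of 0. Lama4, the alpha chain of laminins of mesenchymal and vascular cells, had 7844, 9793 and 9664 normalized counts in si-NC and 10640, 10047 and 10941 in si-GPD1L. The groups were separate, with a log2 fold change of 0.21 (SE 0.092, adjusted p = 0.196 in the edgeR test). Lama2, the chain of muscle laminin, was at -0.0062 (adjusted p = 0.986) with 116 ± 26.8 TPM in si-NC and 122 ± 11.1 TPM in si-GPD1L. Lama5, the alpha chain of vascular and epithelial basement membranes, had 4589, 6693 and 7586 normalized counts in si-NC and 4524, 4811 and 5684 in si-GPD1L. si-NC replicate 1 lay among the si-GPD1L libraries, and the log2 fold change was -0.33 (SE 0.15, adjusted p = 0.217 in the edgeR test). Without that library Lama5 was at -0.51 (adjusted p = 0.00014). Lama1, the chain of early embryonic laminin, had 68.3, 69.9 and 63.5 normalized counts in si-NC and 126, 87.3 and 79.9 in si-GPD1L. The libraries did not overlap (log2 fold change 0.53, adjusted p = 0.133), at a level of 0.781 to 1.60 TPM. Lama3, the alpha chain of laminin-332, had 0.406 to 0.611 TPM and was at -0.075 (adjusted p = 0.884). Lama5 took 16.7% to 20.1% of the summed alpha chain TPM in the si-NC libraries and 13.3% to 15.2% in those of si-GPD1L, ranges that did not overlap, nor did those of Lama4. As shares of the same whole, those of Lama5 and Lama4 are tied to each other.

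Markers of other cell types also differed between the groups, where 6.36% of all genes tested were called (4.03% higher and 2.33% lower). Of the 12 endothelial markers 10 were tested and 4 were higher in si-GPD1L at an adjusted p under 0.05, 0 were lower, and the 12 summed to between 42.5 and 54.4 TPM in si-NC libraries and to between 66.9 and 74.5 TPM in si-GPD1L libraries. Of these markers, Robo4 was at 0 in all 6 libraries, while Cdh5 (VE-cadherin) rose from 76.1 ± 12.6 to 159 ± 28.4 normalized counts and Pecam1 from 40.9 ± 3.94 to 76.4 ± 14.5 (SD, n = 3). All 10 tested were above 0 in log2 fold change, with the largest value, 1.44, in Plvap. Flt1, the most abundant of them, and Kdr were not called, at 0.12 and 0.24 (adjusted p = 0.518 and 0.492 in the edgeR test). Of 9 smooth muscle and pericyte markers 2 rose and 1 fell, and they ran from 568 to 654 TPM in sum in the control group and from 628 to 684 TPM in si-GPD1L. Of the 10 fibroblast markers 0 rose and 2 fell, Lum and Dcn, by 0.77 and 0.66 on the log2 scale. In log2 fold change 8 of the 10 were below 0, with a median of -0.15. The 2 above 0 were Col1a1 and Col1a2, at 0.25 and 0.21 (adjusted p = 0.219 and 0.137 in the edgeR test), which were higher in every si-GPD1L library. The fibroblast markers had a sum of 26959 to 36936 TPM in the control group and of 34299 to 37269 TPM in si-GPD1L. The 11 cardiomyocyte markers ran from 2701 to 2823 TPM in sum in the control group and from 2470 to 2647 TPM in si-GPD1L, with 0 called in either direction. The part of these cells in the values of Itga1, Itga5 and Lamc1 was not tested.

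**Figure D5:**
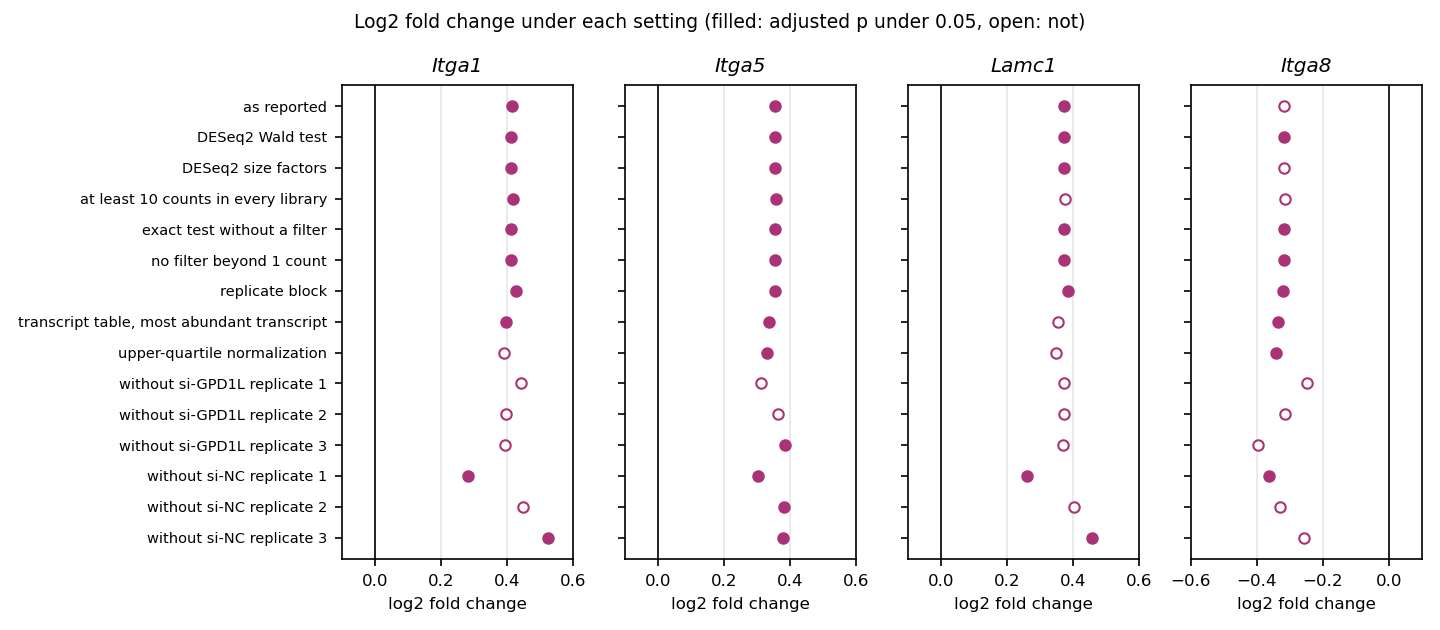
Log2 fold change (x axis) of Itga1, Itga5, Lamc1 and Itga8 under the reported analysis and 14 alternatives, with filled points at an adjusted p under 0.05. The direction is the same in every row of each panel, while Itga5 is called in 12 of the 14 alternatives, Itga1 in 9, Lamc1 in 7 and Itga8 in 7.

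The calls of the chains depended on single libraries. When either si-GPD1L replicate 1 or si-GPD1L replicate 2 was left out, 0 of the 33 chains passed at an adjusted p under 0.05 (edgeR), with Itga5 at 0.31 (adjusted p = 0.109) and 0.36 (adjusted p = 0.0868), while 2.41% and 2.39% of all genes tested passed in these settings. At an unadjusted p under 0.05 there were 8 chains in either case. The share of all genes at that unadjusted threshold was not computed for these settings, and 2.41% and 2.39% are shares at the adjusted threshold. Itga5 was the only chain called with si-NC replicate 2 left out, as with si-GPD1L replicate 3 left out. In these settings 3.62% and 3.90% of all genes tested were called. Without si-NC replicate 1 there were 5 chains higher (Itga1, Itga2, Itga5, Itgb5 and Lamc1) and 3 lower (Itga8, Itga11 and Lama5), beside 10.1% of all genes called in that setting.

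The genes that work with the chains were read from 4 lists, whose calls stand beside 6.36% of all genes tested (4.03% higher and 2.33% lower). Of 37 cytoplasmic adhesion partners, such as talin, vinculin and focal adhesion kinase, 34 were tested and 0 were called by edgeR's quasi-likelihood test, with 6 at an unadjusted p under 0.05, all higher, a smaller share than the 22.4% of all genes. DESeq2 called 1 (Actn1) and the exact test 0. Actn1, which encodes the actin crosslinker alpha-actinin 1 and was the most abundant of the list, had 14480 ± 921 normalized counts in si-NC and 17693 ± 1359 in si-GPD1L (SD, n = 3), at a log2 fold change of 0.29 (adjusted p = 0.0615). The median log2 fold change of the 34 was 0.11.

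Of 15 membrane partners of integrins, 1 rose and 1 fell. Cd47, which binds thrombospondin and associates with alphaV beta3, had 1826, 1923 and 2024 normalized counts in si-NC and 2457, 2551 and 2573 in si-GPD1L, and rose by 0.39 (SE 0.068, adjusted p = 0.0046 in the edgeR test). Sdc2, a heparan sulfate proteoglycan of the cell surface, had 10920, 10218 and 10358 in si-NC and 7719, 7957 and 9277 in si-GPD1L, and fell by 0.34 on the log2 scale (adjusted p = 0.0356). Neither gene's groups overlapped. The call of Sdc2 was lost when si-NC replicate 2, si-GPD1L replicate 1 or si-GPD1L replicate 2 was left out, with adjusted p of 0.0818, 0.186 and 0.205. The tetraspanin Cd63, with the highest mean TPM of this list (1394), was at -0.24 (adjusted p = 0.108), and another tetraspanin, Cd81, had nearly the same mean (1387 TPM) and was above it in all 3 si-GPD1L libraries. The list's median was -0.073.

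Of 20 basement membrane partners of laminins, 2 rose and 0 fell. The unadjusted p was under 0.05 (edgeR) for 6 of them, against 22.4% of all genes tested. Of these 6, 2 were higher and 4 lower (Bcam, Col18a1, Col4a5 and Col4a2). Agrn, which encodes agrin, a heparan sulfate proteoglycan that binds laminin, had 1271, 1662 and 1732 normalized counts in si-NC and 2811, 2985 and 2805 in si-GPD1L, and rose by 0.88 on the log2 scale (SE 0.10, adjusted p = 0.00015 in the edgeR test). Nid2, which encodes nidogen-2, a linker of laminin and collagen IV networks, had 1333, 1508 and 1482 in si-NC and 2367, 2064 and 1836 in si-GPD1L, and rose by 0.54 (SE 0.093, adjusted p = 0.0046). Both had separate groups. Sparc, a collagen-binding matricellular protein and the most abundant of the list, was at -0.083 (adjusted p = 0.566), and the list's median was 0.057.

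Of 32 soluble and matrix ligands of integrins, 29 were in the table and 22 were tested, of which 0 rose and 2 fell. By unadjusted p under 0.05 (edgeR) more pointed up, with 6 higher and 2 lower, against 22.4% of all genes tested. In 8 ligands every si-GPD1L library was above every si-NC library, and in 2 every one was below. Of all genes tested, 15.1% and 13.9% did so. Tgfb3, a TGF-beta whose latent form is bound by alphaV integrins, had 10748, 11043 and 10153 normalized counts in si-NC and 8712, 8490 and 8692 in si-GPD1L, and fell by 0.30 on the log2 scale (adjusted p = 0.0261 in the edgeR test). Thbs2, which encodes thrombospondin-2, had 4697, 5523 and 6219 in si-NC and 3127, 3791 and 4504 in si-GPD1L, and fell by 0.53 on the log2 scale (adjusted p = 0.0302). Both had separate groups, but each call was lost when any of 4 single libraries was left out. For Tgfb3 these were si-NC replicate 2 and each si-GPD1L library, with adjusted p from 0.0881 (log2 fold change -0.31, si-GPD1L replicate 3 left out) to 0.167. For Thbs2 they were si-NC replicates 2 and 3 and si-GPD1L replicates 1 and 2, with adjusted p from 0.0518 to 0.152. Ctgf, a matricellular integrin ligand with the highest mean TPM of the list (2929), was at 0.25 (adjusted p = 0.139). Fn1 was close to it in mean TPM (2877) and above it in 4 of the 6 libraries. The list's median was 0.055.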

How the data were processed

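mRNA-seq of rat atrial fibroblasts compared 3 si-NC with 3 si-GPD1L libraries, grouped by their labels, and the last digit of each si-GPD1L title was taken to number replicates. Reads were paired-end and 150 bases long on an Illumina platform, and the submitters' processing notes name bcl2fastq, HISAT2 2.1.0, HTSeq 0.12.4 and rn6, without saying whether counting used strand. The authors deposited raw read counts for 40154 genes and 55760 transcripts, which are whole numbers without normalization. The deposited TPM values are the counts per gene length brought to the same total in each library, as was checked, and were used for levels, not for tests. The authors' tables of the comparison (fold changes, p-values) and of GO and KEGG terms were not used.

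edgeR 4.0.16 in R 4.3.3 was run on the 14852 genes that passed filterByExpr, with TMM normalization and the quasi-likelihood test and Benjamini-Hochberg adjustment at 0.05, as the study's methods name edgeR. The SE is the absolute log2 fold change over the square root of F, and intervals are at 95%. Library totals were 16892255 to 20149732 counts with a biological coefficient of variation of 0.0894, and 0 counts allow up to 3. Alternatives were DESeq2 1.42.0, other normalizations and filters, the replicate block, each library left out and the transcript table. Values per library were given for the chains called, those with an unadjusted p under 0.05 in shorter form, and the most abundant chain of each class. In each list of partners the called genes and the most abundant one were named. The members and lists were chosen with earlier results of these data known. The values of 1 chain are not reported here.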

Additional observations from a re-analysis of the deposited data

How the results depend on the processing

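The direction of Itga1, Itga5, Lamc1 and Itga8 held under all 14 alternatives, and 0 chains passed both thresholds under any of those run. The chains called higher numbered 5 with no filter beyond 1 count and 1 with upper-quartile normalization (Itga5). Those called lower numbered 1 with DESeq2's Wald test, the exact test without a filter, upper-quartile normalization and the replicate block (Itga8 each time), and 2 with no filter beyond 1 count. Of all genes tested, 7.74% were called with no filter beyond 1 count, 6.61% with upper-quartile normalization and 6.20% with the replicate block. With 1 library left out, the chains called higher ran from 0 to 5, those called lower from 0 to 3, and the median log2 fold change from -0.047 to 0.122. The share of all genes called ran from 2.39% to 10.1% in these settings. The called basement membrane partners numbered 4 with DESeq2 and with no filter beyond 1 count, and 2 to 6 with 1 library left out. For the adhesion partners these counts were 1, 3 and 0 to 2. All basement membrane partners called beyond Agrn and Nid2 were lower in si-GPD1L, among them Col18a1 and Col4a2. The called membrane partners numbered 5 and the ligands 7 with no filter beyond 1 count, and 1 to 4 and 0 to 7 with 1 library left out. The 7 ligands were 5 higher and 2 lower, both with no filter beyond 1 count and without si-NC replicate 1. Chains near 0 changed sign when 1 library was left out: Itga2b from -0.39 to 0.14, Itga7 from -0.13 to 0.015, Itgam from -0.26 to 0.11, Itgb2 from -0.047 to 0.26, Lama2 from -0.15 to 0.12, Lama3 from -0.23 to 0.074 and Lamb2 from -0.10 to 0.057. Same-numbered deviations correlated at -0.014, -0.0060 and 0.043, which is no sign of pairing by replicate number. Such correlations cannot tell whether same-numbered libraries shared a culture. With the replicate block 921 genes were called in place of 945, and Lama2 was at 0.0076. On TMM-normalized counts per kb the Itgb1 ratio was 0.949 in place of 1.01. The cause of these changes was not tested. Counting error limits the chains of under 100 counts, such as Itga2b and Itgb6, whose intervals of the fold ran from 0.554 to 1.58 and from 0.585 to 1.29.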
